A study of Mus musculus with 6 samples.

Results

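The cytosolic ribosomal proteins are the protein subunits of the ribosome that translates nuclear-encoded mRNA. They were chosen by gene symbol: Rpl or Rps followed by a digit, or Rpsa, Rplp0, Rplp1, Rplp2 or Fau. Pseudogene symbols, the paralogs whose names end in l, such as Rpl22l1, and the S6 kinases were left out. The rule gave 45 of the 18193 genes that had a probe set assigned to a single gene. Of these, 22 encode proteins of the small (40S) subunit and 22 encode proteins of the large (60S) subunit. The remaining gene, Rps19bp1, was taken in by its name only. It encodes a nucleolar protein that binds Rps19 and is known as a regulator of Sirt1, and it is not a ribosomal subunit. Each gene is represented by its brightest probe set, and no difference between conditions entered the choice. A further 27 ribosomal protein symbols, among them Rpl3, Rpl5, Rpl10 and Rplp1, appear only on probe sets that list several genes, and so have no value of their own here.

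RNA of naive splenic CD8+ T cells was hybridised to 6 Affymetrix arrays. The cells came from Nrdp1-/- mice or wild-type (Nrdp1+/+) mice, all labelled as strain C57/BL6. For each genotype there was 1 array of untreated cells, 1 of cells stimulated for 4 h and 1 of cells stimulated for 8 h. Stimulation was by anti-CD3 fixed to a surface at 5 µg/ml, which engages the T cell receptor, with anti-CD28 in solution at 1 µg/ml, which costimulates. The gene Rnf41 encodes Nrdp1, which is a ubiquitin ligase of the E3 type. The labels give neither the age of the mice, nor how the allele was made, nor how many mice gave each RNA. With 1 array per genotype and time, the p-values measure the spread of the arrays around a model in which time and genotype add. That spread may be technical, and it also holds any difference between the genotypes in their response to stimulation.

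A ribosome carries the ribosomal proteins in fixed proportions, and their mRNAs are among the most abundant in a growing cell. These mRNAs typically begin with a cytosine followed by a run of pyrimidines, the 5′ terminal oligopyrimidine (TOP) tract, through which mTORC1 and Larp1 govern their translation. Lymphocytes that leave the resting state enlarge and make more ribosomes, and control of TOP mRNAs acts to a large degree on translation, which an array of total RNA does not read.

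The listed starts of the genes were searched for the tract. RefSeq promoter sequences (GRCm38.p6) were given for 39 of the 44 ribosomal protein genes, each covering 250 bases before and 50 bases from the listed start. In 9 of the 39 (23.1%) the listed start was itself a C that opened a run of at least 5 pyrimidines, against 458 of 17453 other protein-coding genes (2.62%). These starts are shown from 35 bases upstream, with 25 bases from the start onward, and the capitals mark the pyrimidine run at the start.
Fau: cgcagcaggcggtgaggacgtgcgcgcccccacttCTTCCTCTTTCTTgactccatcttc
Rpl14: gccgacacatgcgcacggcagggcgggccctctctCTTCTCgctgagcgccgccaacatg
Rpl35: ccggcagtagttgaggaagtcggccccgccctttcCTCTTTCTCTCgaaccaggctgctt
Rpl38: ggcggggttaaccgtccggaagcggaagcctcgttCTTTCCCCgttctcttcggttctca
Rplp2: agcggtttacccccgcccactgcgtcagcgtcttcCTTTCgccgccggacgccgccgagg
Rps10: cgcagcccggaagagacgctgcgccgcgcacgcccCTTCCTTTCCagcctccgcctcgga
Rps18: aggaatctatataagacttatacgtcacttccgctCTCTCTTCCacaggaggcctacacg
Rps27: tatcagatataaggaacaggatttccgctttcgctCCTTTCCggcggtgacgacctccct
Rps6: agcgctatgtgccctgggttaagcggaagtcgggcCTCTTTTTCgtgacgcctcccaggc

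They lie at chr19:6057912-6057971 on the plus strand (Fau), chr9:120571482-120571541 on the plus strand (Rpl14), chr2:39005107-39005166 on the minus strand (Rpl35), chr11:114668545-114668604 on the plus strand (Rpl38) and chr7:141447616-141447675 on the plus strand (Rplp2). Rps10 is at chr17:27635220-27635279, Rps18 at chr17:33955641-33955700, Rps27 at chr3:90213624-90213683 and Rps6 at chr4:86857343-86857402, all on the minus strand. The runs were between 5 bases (Rplp2) and 13 bases (Fau) long. A listed start can be off by a few bases. Allowing a run of at least 7 pyrimidines that opens with C within 10 bases of it gave 19 of 39 genes (48.7%), against 14.5% of other genes. Both ends of the signal range are represented: Rpl38 and Rps18 are among the brightest genes of the arrays, and Rpl14 and Rps27 among the dimmest members. The starts of Rps25 and Rpl12, whose signal rose on stimulation, are shown for comparison and had no such run at the listed position. In Rps25 a pyrimidine run that begins with C opens upstream of the listed start, beyond the 10 bases searched. Whether Rps25 mRNA begins in that run is not known here.
Rps25: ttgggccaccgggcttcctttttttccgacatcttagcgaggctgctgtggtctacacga
Rpl12: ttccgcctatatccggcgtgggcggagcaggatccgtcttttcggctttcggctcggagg

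Rps25 is at chr9:44407679-44407738 and Rpl12 at chr2:32961677-32961736, both on the plus strand. Short words were also searched in the whole windows on both strands. The ETS-type word CCGGAAG was in 19 of 39 ribosomal protein promoters (48.7%), against 12.9% of other promoters. The YY1-type word AAGATGGC was in 10.3% against 3.55%, the TATA-box word TATAAA in 12.8% against 14.8%, and the E-box word CACGTG, as bound by Myc, in 10.3% against 8.91%. The ETS-type word ends in the letters that open the YY1-type word, so matches of these can overlap. A match describes the letters of a window and not a bound site.

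The ribosomal proteins were among the highest signals on the arrays. The values are MAS5 signals, a linear intensity that was scaled to a common level on each array, and a signal compares arrays and not the amounts of different genes. All of the 10 brightest genes were members, as were 16 of the 20 brightest and 34 of the 50 brightest. Rpl13a, a 60S protein also known for silencing inflammatory mRNAs in myeloid cells, ranked first, with signals of 52301, 52689 and 46219.7 in Nrdp1-/- cells (untreated, 4 h and 8 h), against 47694, 48478 and 47318 in wild-type cells. Rps29, a zinc-binding 40S protein, ranked second, with 49324, 48854 and 43099.9 in Nrdp1-/- cells, against 47228, 46910.3 and 46475 in wild-type cells. In both genes the Nrdp1-/- array at 8 h was lowest and the wild-type arrays lay close together.

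The members fell into separate ranges of signal. A mean of 20000, a limit chosen after the values were seen, was reached by 35 members, 18 of the 40S subunit and 17 of the 60S subunit, with means between 23626 (Rps26) and 49117 (Rpl13a). The other 10 had means of at most 3510.2 (Rpl37), and none lay between. Rps16 was at about the lowest level of all, with 3.01, 1.71 and 3.12 in Nrdp1-/- cells, against 2.33, 2.96 and 4.28 in wild-type cells, and was the only member that did not pass the filter on low signal. The range of signal followed the kind of probe set. Of the 35 bright members, 31 were read by a probe set whose name carries a suffix, against 1 of the 10 dim members. In 17 of the 31 the suffix is a, which marks probes common to several transcripts of the same gene. In 12 it is x and in 2 it is s, which mark probes that also match other genes, and the signals of these x and s sets may hold more than the named gene, since ribosomal protein genes have many processed pseudogenes.

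Each of the 9 dim ribosomal proteins was also listed, beside other genes, by 1 or more probe sets at 20000 or above, 19 listings in all. For Rps16 these had means of 34546 and 44994, for Rps25 28358, for Rpl39 42809 and for Rpl12 30195 and 45011. Those signals cannot be assigned to a single gene. Which part of a transcript the dim probe sets read is not known here.

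**Figure D1:**
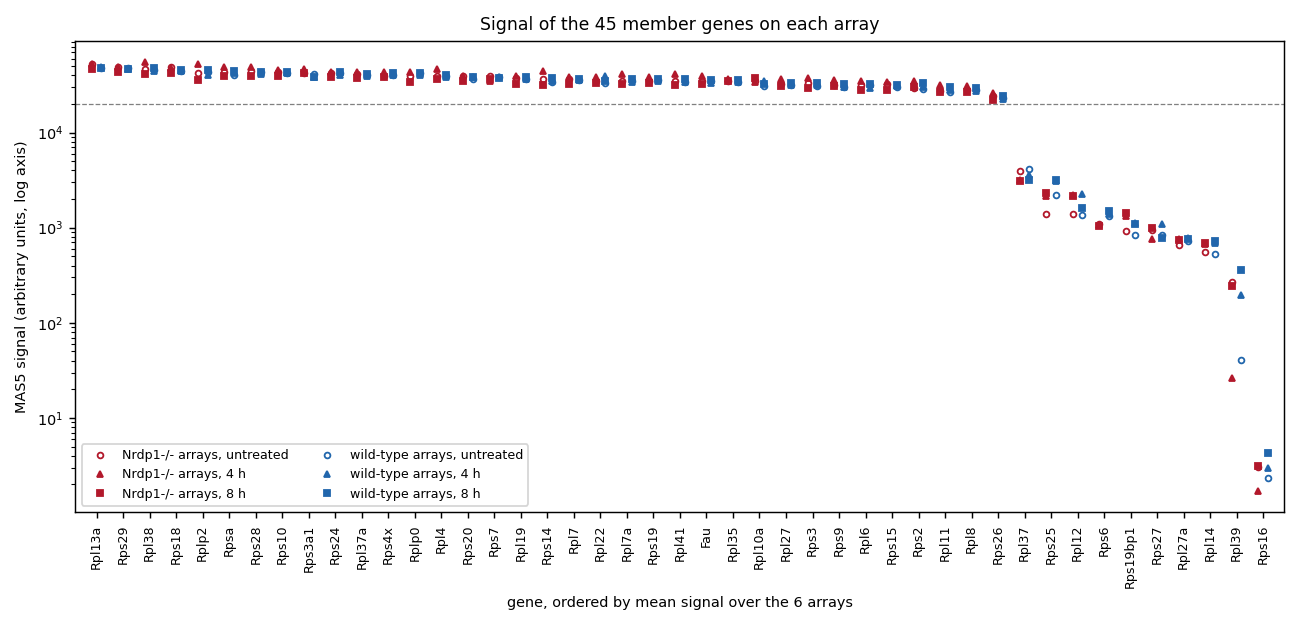
MAS5 signal (log axis) of the 45 member genes, ordered by mean, on the 3 Nrdp1-/- arrays (red) and the 3 wild-type arrays (blue), with symbols for untreated, 4 h and 8 h; the dashed line is at 20000. The 35 bright members lie in a narrow band above the line with little spread between arrays, the next member, Rpl37, is several times dimmer, and Rpl39 shows the widest spread among those that passed the filter.

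Among the 35 bright members the signal moved little over the 6 arrays. The ratio of the highest to the lowest array was between 1.08 and 1.47, with a median of 1.20. The flattest were Rpl35 (1.08), a 60S protein near the exit of the peptide tunnel, Rps7 (1.11), which is needed for 40S maturation, and Rps4x (1.12), the X-linked copy of Rps4. Rpl35 had 34846, 36496 and 34924 in Nrdp1-/- cells, against 33879.6, 33899.7 and 36039.9 in wild-type cells, so that the genotypes overlapped. The widest was Rplp2, an acidic protein of the ribosomal stalk that recruits elongation factors, with 42391, 53075 and 36133 in Nrdp1-/- cells, against 42892, 40702 and 46027 in wild-type cells. Its highest and its lowest signal were both in stimulated Nrdp1-/- cells.

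That pattern was shared by most bright members. The Nrdp1-/- array at 4 h was the highest of the 6 for 30 of the 35, and the Nrdp1-/- array at 8 h was the lowest for 29. Rpl38, a 60S protein known for its part in translating Hox mRNAs in mouse embryos, had 46349 untreated, 55005 at 4 h and 41486 at 8 h in Nrdp1-/- cells, against 45929, 44899 and 48194 in wild-type cells. Rplp0, the stalk protein that anchors Rplp2, had 39701, 43642 and 34232 in Nrdp1-/- cells, against 41891, 39998 and 42522 in wild-type cells. In both genes the 3 wild-type arrays lay inside the range of the Nrdp1-/- arrays.

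Exceptions, named after their values were seen, were few. Rps29, Rps18 and Rps7 were highest on the untreated Nrdp1-/- array, Rpl10a on the Nrdp1-/- array at 8 h, and Rpl22, which is required for the development of αβ T cells in mice, on the wild-type array at 4 h. The lowest array was the untreated wild-type one for Rpl35, Rpl10a, Rps9 and Rps2, the Nrdp1-/- array at 4 h for Rps7 and the wild-type array at 8 h for Rps3a1. Rpl10a, a 60S protein, thus ran against the common pattern with 34527, 34182 and 37429 in Nrdp1-/- cells and 30789, 35045 and 32771 in wild-type cells.

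The same arrays stood apart for the 46 other genes that reached 20000. These are not all unrelated to the members. They include the paralog Rpl22l1 and the TOP-class genes Eef1a1, Eef1b2, Eef2, Eif3e, Eif3f, Pabpc1, Tpt1, Naca and Npm1. The Nrdp1-/- array at 4 h was highest for 26 of the 46 and the Nrdp1-/- array at 8 h lowest for 22. As the median log2 deviation from each gene's mean, the bright members stood at 0.13 on the Nrdp1-/- array at 4 h and -0.11 on that at 8 h, and the other bright genes at 0.11 and -0.05. Over all 10838 genes tested the corresponding medians were 0.00 and -0.03. The single-symbol member probe sets held 6.29%, 6.61% and 5.90% of all signal on the Nrdp1-/- arrays (untreated, 4 h and 8 h), against 6.16%, 6.18% and 6.33% on the wild-type arrays.

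Set side by side without a test, since each value compares single arrays, the median Nrdp1-/- minus wild-type difference over the bright members was 0.04 for the untreated cells, 0.17 after 4 h and -0.14 after 8 h. The difference was above 0 for 29, 32 and 2 of the 35 at these times. For the other bright genes the counts were 34, 35 and 16 of 46, with medians of 0.05, 0.13 and -0.06. Over all genes tested they were 5134, 5561 and 4985 of 10838. After quantile normalization the 3 medians of the bright members were 0.00, -0.02 and 0.01. After centring each array on its median they were 0.04, 0.27 and -0.21. Quantile normalization gives every array the same set of values, so a shift shared by the brightest genes is largely removed whatever its source. Its loss after that step therefore cannot decide whether the pattern is present in the cells. The size of the pattern depended on how the arrays were scaled to each other. With 1 array for each genotype and time, a property of an array cannot be told apart from a property of the cells.

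**Figure D2:**
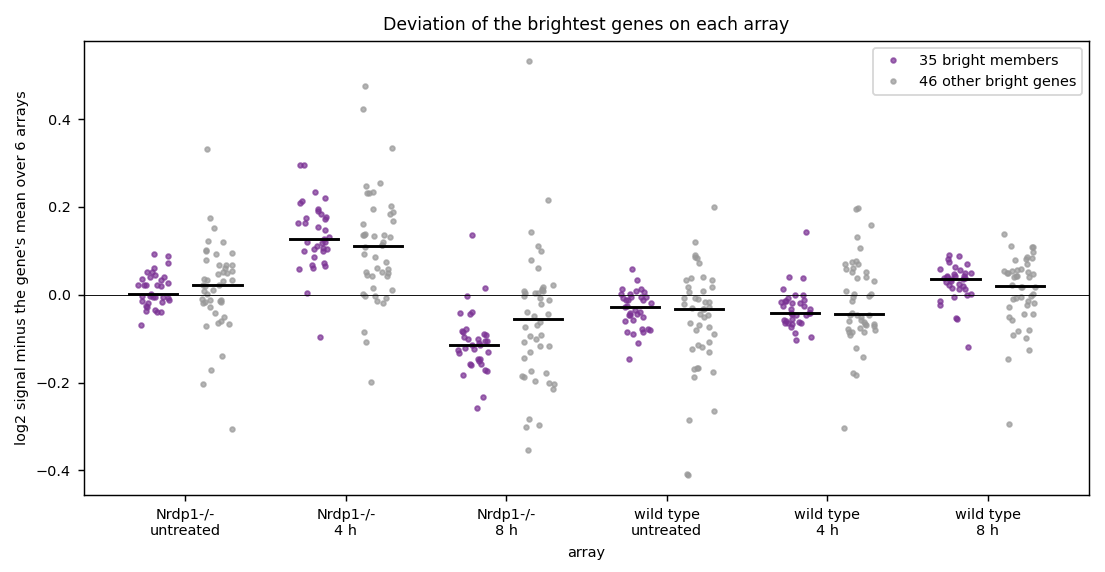
Log2 signal minus the gene's own mean over the 6 arrays, for the 35 bright members (purple) and the 46 other genes with a mean of at least 20000 (grey), with 1 point per gene and a bar at the median of each set. Both sets sit highest on the Nrdp1-/- array at 4 h (medians 0.13 and 0.11) and lowest on the Nrdp1-/- array at 8 h (-0.11 and -0.05).

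After 4 h of stimulation 3 members had risen and none had fallen in the additive model of time and genotype over all 6 arrays (limma, adjusted p under 0.05 over all genes tested). That is 3 of the 44 tested, where 8.01% of all genes rose and 5.51% fell. Without Rps19bp1, which is not a ribosomal subunit, 2 members had risen. Of the 44 fitted changes, 38 were above 0, against 4756 of the 10838 over all genes. The median of the 44 was 0.05 on the log2 scale, against -0.05 over all genes. Among the 46 other genes that reached 20000, 33 were above 0, also with a median of 0.05. Against the untreated array of the genotype, 31 of 35 bright members were higher in Nrdp1-/- cells and 14 in wild-type cells. In both genotypes 12 of the 35 rose. For the other bright genes the counts by genotype were 33 and 23 of 46. At an unadjusted p under 0.05 there were 4 members higher and 1 lower, against 1443 and 1548 of the 10838 genes tested. No bright member was called, with 0 at an unadjusted p under 0.05, and their 95% intervals together reached from -0.28 to 0.44. The largest change of a bright member was 0.18 ± 0.09 (SE) for Rpl22.

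The 3 that rose were all dim. Rpl12, a 60S protein at the base of the stalk, had 2204 at 4 h and 1401 untreated in Nrdp1-/- cells, and 2241 at 4 h and 1359 untreated in wild-type cells. Both stimulated arrays were above both untreated ones, and the change was 0.69 ± 0.13 (limma, adjusted p = 0.0049). Rps25, a 40S protein used in initiation at some internal ribosome entry sites, had 2174 at 4 h and 1378 untreated in Nrdp1-/- cells, and 3089.9 at 4 h and 2229.5 untreated in wild-type cells. It rose by 0.56 ± 0.11 (limma, adjusted p = 0.0063), with the stimulated Nrdp1-/- array below the untreated wild-type one. Rps19bp1 rose by 0.47 ± 0.12 (limma, adjusted p = 0.0244), with 1320.3 at 4 h and 916 untreated in Nrdp1-/- cells, and 1121 at 4 h and 835 untreated in wild-type cells.

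The calls at 4 h depended on single arrays. Rps25 was not called without the untreated Nrdp1-/- array (0.46), nor was Rps19bp1 without that array (0.39) or without the wild-type array at 4 h (0.47). Rpl39 was called as risen without the untreated Nrdp1-/- array (1.61), and as fallen without the untreated wild-type array (-2.59) or the wild-type array at 4 h (-2.35). Without the intensity trend in the variance none was called as risen.

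At 8 h the same 3 genes had risen and Rpl37 had fallen, which is 3 and 1 of 44, where 9.88% of all genes rose and 9.26% fell. Without Rps19bp1 2 members had risen and 1 had fallen. The comparisons at 8 h share the untreated arrays with those at 4 h. Rps25 had 2317 at 8 h in Nrdp1-/- cells and 3162 in wild-type cells, and rose by 0.63 ± 0.11 (limma, adjusted p = 0.0028). Rps19bp1 had 1416 and 1103, and rose by 0.51 ± 0.12 (limma, adjusted p = 0.0135). Rpl12 had 2164 and 1622, and rose by 0.44 ± 0.13 (limma, adjusted p = 0.0342). Set against the untreated array of its genotype, Rpl12 was higher at 8 h by 0.63 in Nrdp1-/- cells and by 0.25 in wild-type cells, a difference at 8 h that was not tested.

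Rpl37, a zinc-binding 60S protein, had 3108 at 8 h and 3924 untreated in Nrdp1-/- cells, and 3204 at 8 h and 4115 untreated in wild-type cells. Both stimulated arrays were below both untreated ones, and the change was -0.35 ± 0.10 (limma, adjusted p = 0.0325). The probe sets at 20000 or above that list Rpl37 beside other genes changed by -0.18 and -0.04 and were not called.

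No bright member was called at 8 h, with 95% intervals that together reached from -0.38 to 0.34. The median over the 44 members was -0.02, against -0.07 over all genes and -0.02 over the other bright genes. Of the 35 bright members, 27 were lower at 8 h in Nrdp1-/- cells and higher in wild-type cells, each against the untreated array of its genotype. Counted by genotype, 3 of the 35 were higher in Nrdp1-/- cells and 30 in wild-type cells. For the other bright genes these counts were 9 and 34 of 46, and over all genes tested 43.1% and 44.3% were higher. The calls at 8 h also depended on single arrays. Without the Nrdp1-/- array at 8 h only 1 member, Rps25, had risen, and without the Nrdp1-/- array at 4 h there were 5, with Rpl14 and Rpl39 added. Rpl37 was not called without the untreated Nrdp1-/- array (-0.33), the Nrdp1-/- array at 8 h (-0.39), the untreated wild-type array (-0.37) or the wild-type array at 8 h (-0.31). Rpl12 was not called without the untreated Nrdp1-/- array (0.36) or that at 8 h (0.24), nor Rps19bp1 without the same arrays (0.43 for each). With each array centred on its median, 2 members had risen and 0 had fallen.

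Between 4 h and 8 h no member was called in either direction by limma (1 higher and 0 lower at an unadjusted p under 0.05), where 0.0185% of all genes were higher and 0.0277% lower at 8 h. Without the adjustment 376 of the 10838 genes tested were higher and 531 lower. When 1 array was left out, or the stimulated arrays were fitted alone, up to 1 member was called as higher at 8 h, and this was Rpl39 (1.93 on the stimulated arrays alone).

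**Figure D3:**
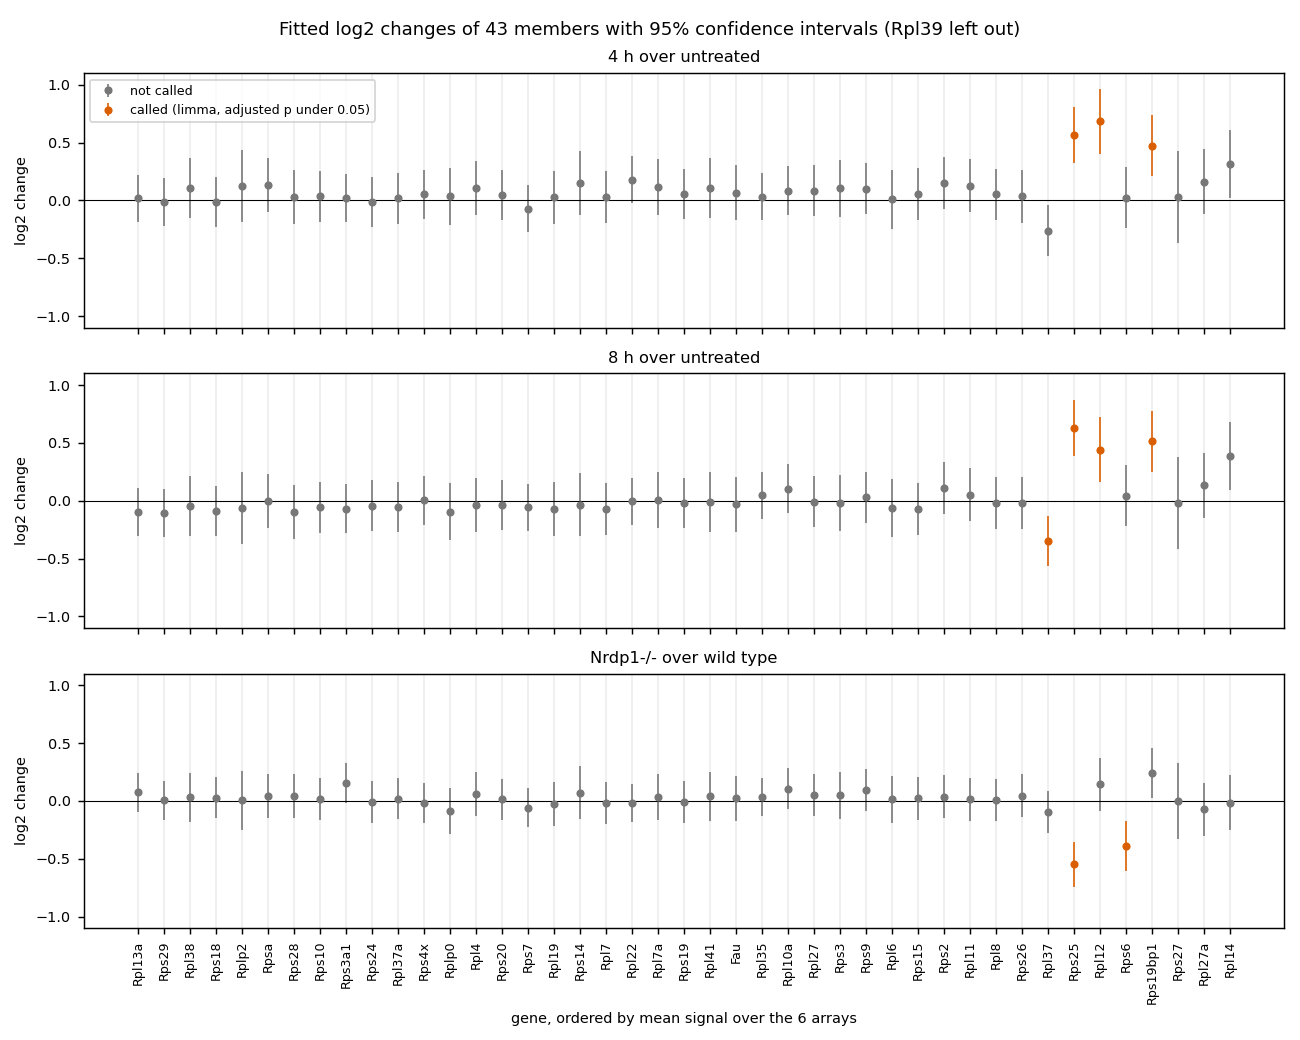
Log2 change (4 h over untreated, 8 h over untreated, Nrdp1-/- over wild type) of the members that passed the filter, with the 95% interval from limma and ordered by mean signal; Rpl39 is left out because its intervals exceed the axis. The bright members on the left sit close to 0 in all panels, and every called gene (orange) is among the dim members on the right.

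Other members, fixed in the rule for naming genes, covered further roles. Rpsa, a 40S protein also known as the laminin receptor precursor, changed by 0.13 ± 0.11 at 4 h and -0.01 ± 0.11 at 8 h. Rps19, mutated in human Diamond-Blackfan anaemia, changed by 0.06 ± 0.10 and -0.02 ± 0.10. Rpl11, which joins the 5S RNP and can bind Mdm2, changed by 0.13 ± 0.10 and 0.05 ± 0.10. Fau, a 40S protein made as a fusion with a ubiquitin-like protein, changed by 0.07 ± 0.11 and -0.03 ± 0.11. Rpl41, the shortest ribosomal protein, changed by 0.11 ± 0.12 and -0.02 ± 0.12. None of these changes was called by limma. Rpl14, a dim 60S protein, changed by 0.31 at 4 h and 0.38 at 8 h and did not pass either.

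Several genes had both a bright probe set and one under 5000, and there the dim one often moved more. Of 10 such genes, 8 had a higher median change at 4 h in their dim probe sets than in their bright ones. For Rpl22 the medians were nearly equal (0.165 and 0.162). The dim sets of Rpl35, Rps18 and Rps20 had means between 74.2 and 128, not far above the array median, and none was called at 4 h. For Rps9 the dim probe set changed by 0.81 at 4 h, and the 2 bright ones by 0.10 and -0.29. For Rps10 the medians of the dim and bright sets were 0.52 and 0.04, and for Rpl41 0.62 and 0.11. The dim set of Rps10, with a mean of 199, was not called. The order was the other way for Rps24 (-0.13 and 0.01) and Rps3 (-0.05 and 0.11). In a fit over single probe sets, 5 of the 90 tested single-symbol member probe sets rose at 4 h and none fell, and of 106 that list a ribosomal protein beside other genes 1 rose and none fell (limma), where 4.84% of all probe sets tested rose and 2.75% fell. At 8 h 4 of the single-symbol sets and 1 of the shared ones rose and none fell, where 6.38% of all probe sets rose and 4.65% fell. Between genotypes 1 single-symbol set was lower in Nrdp1-/- cells, and of the shared ones 2 were higher and 1 was lower, where 1.84% of all probe sets were higher and 1.72% lower. For the genes called at 4 h, the bright probe set that lists Rps25 beside other genes changed by 0.08 at 4 h and -0.11 at 8 h, and those that list Rpl12 by 0.09 each at 4 h. Why the sets of a gene differ was not tested.

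Between genotypes 2 members were lower in Nrdp1-/- cells and none higher (limma, adjusted p under 0.05), that is 2 and 0 of 44, where 2.57% of all genes were lower and 2.47% higher. At an unadjusted p under 0.05 there were 2 lower and 1 higher, against 935 and 856 of the 10838 genes tested. Both called members are dim and belong to the 40S subunit. Rps25 had 1378, 2174 and 2317 in Nrdp1-/- cells (untreated, 4 h and 8 h), against 2229.5, 3089.9 and 3162 in wild-type cells. It was lower at every time, by 0.69, 0.51 and 0.45 on the log2 scale, with a fitted difference of -0.55 ± 0.09 (limma, adjusted p = 0.0040). The genotypes overlapped only in that the Nrdp1-/- array at 8 h was above the untreated wild-type one.

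Rps6, the 40S protein phosphorylated by the S6 kinases downstream of mTORC1, had 1100.4, 1075 and 1030.1 in Nrdp1-/- cells, against 1323, 1399 and 1498 in wild-type cells. It was the only member whose Nrdp1-/- arrays all lay below all its wild-type arrays, as 6.96% of all genes tested did. The fitted difference was -0.39 ± 0.10 (limma, adjusted p = 0.0432). It was no longer called without the Nrdp1-/- array at 8 h (-0.32), the wild-type array at 4 h (-0.40) or that at 8 h (-0.32), nor after quantile normalization (-0.38) or median centring (-0.38). Among the probe sets that list Rps6 beside other genes, the 4 at 20000 or above differed by -0.07 to 0.04 and were not called. Another of them, with a mean of 3434, was higher in Nrdp1-/- cells by 0.98. The bright probe set that lists Rps25 beside other genes differed by -0.01.

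No bright member was called between genotypes, with 95% intervals that together reached from -0.29 to 0.33. The median over the members was 0.02, against -0.01 over all genes and 0.03 over the other bright genes. Rps3a1, a 40S protein, was the only member whose Nrdp1-/- arrays all lay above all its wild-type arrays, as 5.73% of all genes tested did. Its signals were 42812, 46845 and 41904.5 in Nrdp1-/- cells, against 41107, 38622 and 38167 in wild-type cells, and its difference of 0.16 ± 0.08 did not pass the test.

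**Figure D4:**
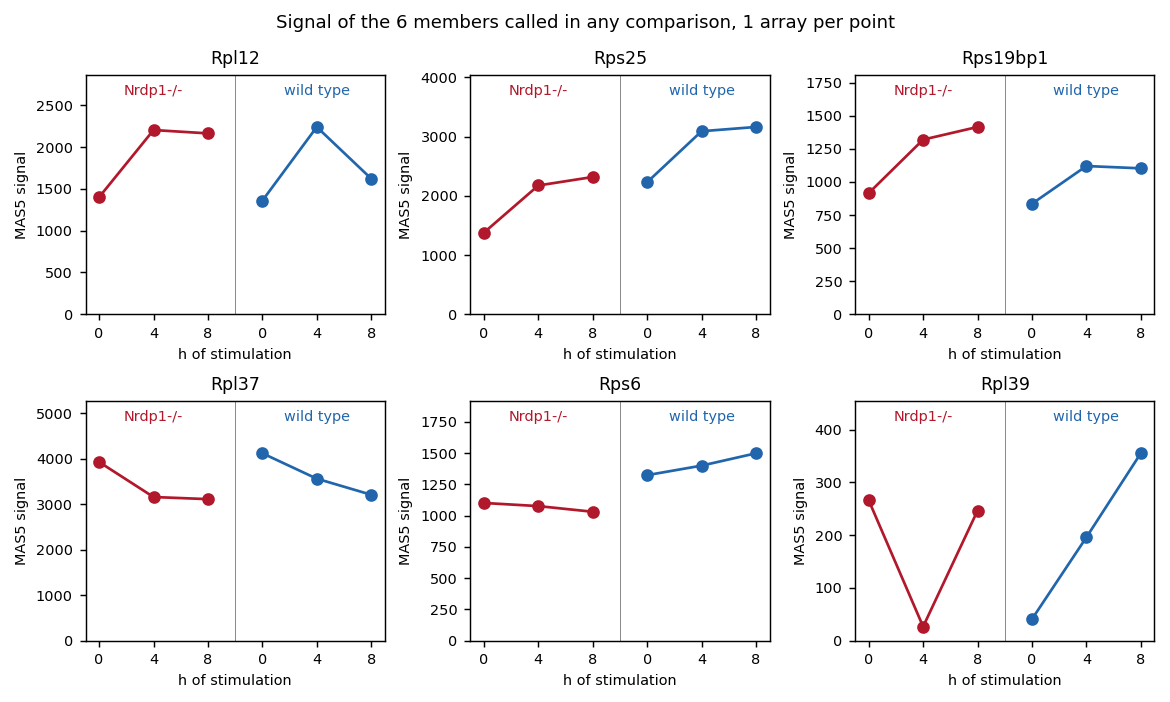
MAS5 signal against hours of stimulation for the 6 members called in any comparison, with the 3 Nrdp1-/- arrays (red) left of the 3 wild-type arrays (blue) in each panel, 1 array per point and axes from 0. Rps25 and Rps6 lie lower in Nrdp1-/- cells at each time, Rpl12, Rps25 and Rps19bp1 rise on stimulation in both genotypes, Rpl37 falls in both, and Rpl39 takes a different course in each genotype.

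The change on stimulation differed between genotypes in 1 member, Rpl39, a short 60S protein lining the peptide exit tunnel, where 0.129% of all genes had a smaller and 0.0923% a larger change in Nrdp1-/- cells. Its signals were 266, 26.4 and 246 in Nrdp1-/- cells (untreated, 4 h and 8 h), against 40.6, 196 and 355 in wild-type cells. The array at 4 h was lowest in Nrdp1-/- cells and the untreated one was lowest in wild-type cells. The difference in change was -4.20 ± 0.61 (limma, adjusted p = 2.2e-08). Both low values were below the median signal of an array, which was between 61.5 and 68.6, and the test rests on a spread borrowed from other genes. The call was lost without the intensity trend. It was also lost when probe sets were averaged per gene, which leaves the values of Rpl39, with its 1 single-symbol probe set, as they are and changes only the borrowed spread. Under a filter at the 70th percentile the gene was not tested. The bright probe set that lists Rpl39 beside other genes changed by 0.01 at 4 h and -0.26 at 8 h and was not called.

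The paralogs left out by the rule behaved differently from one another. Of 9 listed, 5 were tested. Rpl7l1, a homologue of Rpl7 with a role in mouse embryo development, rose by 0.82 at 4 h and 0.83 at 8 h (limma, adjusted p = 0.0030 and 0.0024). Rps27l, a p53-responsive paralog of Rps27, rose by 0.73 at 8 h (limma, adjusted p = 0.0076). Rpl39l, known from the testis, was higher in Nrdp1-/- cells by 1.15 (limma, adjusted p = 0.0042). Rpl22l1, the paralog of Rpl22, had a mean signal of 22142 and changed by 0.10 and -0.02. Rps4l was not called in these comparisons, and Rpl3l did not pass the filter on low signal.

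Other mRNAs of the TOP class encode mainly translation factors. Of 21 tested, none was called at 4 h and 2 rose at 8 h, Eif3l (0.35) and Nap1l1 (0.31), where 8.01% and 9.88% of all genes rose. At an unadjusted p under 0.05, 6 of the 21 were higher at 4 h, against 1443 of the 10838 genes tested. The medians at 4 h and 8 h were 0.09 and 0.07. The elongation factors Eef1a1 (0.05 and 0.02) and Eef2 (0.01 and -0.10) and the poly(A)-binding protein Pabpc1 (0.07 and -0.06) were not called (limma). Between genotypes Vim, which encodes vimentin, was higher in Nrdp1-/- cells by 0.73 (limma, adjusted p = 0.0109).

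Of 21 tested factors that assemble and export the subunits, 12 rose at 4 h and 13 at 8 h, and none fell (limma), where 8.01% and 9.88% of all genes rose and 5.51% and 9.26% fell. The median changes were 0.51 and 0.56. Mdn1, the AAA ATPase that remodels the pre-60S particle, rose by 1.91 at 4 h and 1.11 at 8 h. Bysl, a 40S assembly factor, rose by 1.87 and 2.23, and Grwd1, a chaperone of Rpl3, by 1.86 and 1.38. Tsr1, also of the 40S path, rose by 1.21 and 1.32. None of the 21 was called between genotypes (limma). At an unadjusted p under 0.05, 6 were higher and 2 lower, against 856 and 935 of the 10838 genes tested. The difference between this list and the ribosomal proteins was not tested.

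Of 17 tested genes of mTORC1 signalling and TOP mRNA control, 3 rose at both times and 1 fell at 8 h (limma), where 8.01% and 9.88% of all genes rose and 9.26% fell at 8 h. Eif4ebp1, the translational repressor inactivated by mTORC1, rose by 1.23 at 4 h and 1.98 at 8 h. Larp1, which binds the TOP tract, rose by 0.68 and 0.71, and Larp4, which binds poly(A), by 0.45 and 0.58. Rptor, a subunit of mTORC1, fell by 0.46 at 8 h. None was called between genotypes, with 1 higher and 1 lower at an unadjusted p under 0.05. Over the 10838 genes tested 856 were higher and 935 lower at that level.

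The cell preparations differed in markers of other cells. All 10 tested B cell markers were lower in Nrdp1-/- cells (limma), where 2.57% of all genes were lower. The summed signal of the 11 measured B cell markers was 3070.2 to 3371 in Nrdp1-/- cells, against 14616 to 17048 in wild-type cells. Of 11 tested myeloid markers 6 were higher in Nrdp1-/- cells (limma), where 2.47% of all genes were higher. The summed signal of the 12 measured myeloid markers was 13653, 8788 and 3254 in Nrdp1-/- cells (untreated, 4 h and 8 h), against 1972, 2082 and 2064 in wild-type cells. At 8 h 5 of the 11 had fallen, where 9.26% of all genes fell, with a median change of -0.79. In 2 of the 11, Lyz1 and Lyz2, the change on stimulation was called as smaller in Nrdp1-/- cells (limma), as for 0.129% of all genes. The part of this shift in the changes of the members on stimulation was not tested. The CD8 T cell markers summed to 56964 to 65967 in Nrdp1-/- cells, against 61625 to 68376 in wild-type cells. None of 6 was called between genotypes by limma. At an unadjusted p under 0.05, 1 was higher and 1 lower, against 856 and 935 of the 10838 genes tested. Since ribosomal proteins are expressed in every cell type, the part of these differences in the values of Rps25 and Rps6 was not tested, and fewer cells of a type cannot be told apart from less RNA per cell. The extraction text in the labels names colon. Of 6 markers of colon epithelium 3 were below the array median on every array. Epcam, with a mean of 313, was lower in Nrdp1-/- cells, with a log2 difference of -1.06 (limma, adjusted p = 0.0014). Lgals4 had a mean of 346 and was not called. The summed signal of all 6 colon markers was 603 to 788 in Nrdp1-/- cells, against 753 to 1066 in wild-type cells.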

How the data were processed

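The table as deposited holds 1 linear signal intensity for each probe set and array. The authors' software is MAS5, per the submitters' processing notes, with no version given. The mean without the lowest and highest 2% of values was 500.003 on every array, so the deposited intensities had been scaled. Probe sets were named from the platform annotation, and 34945 of 45101 had 1 symbol, 932 had several, 9160 were not listed and 64 were controls. Through Entrez identifiers 34741 probe sets matched RefSeq, which changed 0 symbols. Each gene took its brightest single-symbol probe set. Logs were taken to base 2 after adding 4.45 to the signal (its 10th percentile over the table), which understates changes of dim genes. Genes at or above the array median on at least 2 of 6 arrays were tested, 10838 of 18193. limma 3.58.1 in R 4.3.3 fitted time and genotype as additive terms, with eBayes and an intensity trend, and Benjamini-Hochberg adjustment over all genes tested (threshold 0.05, 2 residual and 8.99 prior degrees of freedom). A genotype-by-stimulation term was added for the difference in response (1 residual degree of freedom, with the prior degrees of freedom estimated as infinite). Tables were made in Python 3.11.15.

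The ending l in the symbol rule was read as the suffix of a paralog, which keeps Rpl4, Rpl6, Rpl7 and Rpl8; read to the letter it leaves 41 members. The number of arrays limits the precision. The rule for naming genes took 18 fixed members, up to 10 called members per comparison and direction with the same sign in both genotypes or at each of the 3 times, the 3 brightest, 3 dimmest and 3 flattest members, the paralogs, and up to 4 called genes of each other list. The members, lists and alternatives were chosen with earlier results of these data known. The fits were tested on simulated data. Alternatives covered the scaling, pseudocount, filter, probe set, variance trend, members and arrays used.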

Additional observations from a re-analysis of the deposited data

Results flagged for a closer look

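Rpl39 stood out because the test of genotype by stimulation called it: its change on stimulation in Nrdp1-/- cells minus that in wild-type cells was -4.20 (limma, adjusted p = 2.2e-08). Against the untreated array of the genotype, its changes were -3.13 at 4 h and -0.11 at 8 h in Nrdp1-/- cells, and 2.15 at 4 h in wild-type cells, with a higher value at 8 h. Rps6 stood out because both stimulated Nrdp1-/- arrays were below the untreated one (-0.03 and -0.09) and both wild-type ones above it (0.08 and 0.18). The mean change in Nrdp1-/- cells minus that in wild-type cells was -0.19. The rule that singled out Rps6 involves no test of the difference, and the fitted genotype-by-stimulation term was not called (limma, adjusted p = 1.00).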

How the results depend on the processing

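Over the 9 called changes by time or genotype, 107 comparisons with an alternative kept direction and call and 30 kept the direction without the call. Among the uncalled changes, 15 comparisons passed the threshold, 12 of them for Rpl39, whose change at 4 h was between -2.59 and 1.61 when 1 array was left out. Without the intensity trend in the variance the counts were 0 for members risen at 4 h, risen at 8 h, fallen at 8 h, lower in Nrdp1-/- cells and differing by genotype in response. Those counts were likewise 0 among members with a mean of at least 20000. In the fit over probe sets, single-symbol sets gave 5 risen at 4 h, 0 fallen at 8 h and 1 lower in Nrdp1-/- cells, and sets listing several genes gave 1 risen at 4 h, 1 risen at 8 h, 0 fallen at 8 h, 2 higher and 1 lower in Nrdp1-/- cells. Members lower in Nrdp1-/- cells numbered 1 with quantile normalization, with median centring, without a filter and with probe sets averaged per gene. Median centring gave 0 fallen at 8 h, and the stimulated arrays alone gave 1 higher at 8 h than at 4 h. The difference in response, called for Rpl39, was called in 0 members with the filter at the 70th percentile, where Rpl39 was not tested, or with probe sets averaged per gene. Leaving out 1 array at a time gave, not always for the same genes, 2 to 3 risen and 0 to 1 fallen at 4 h, 1 to 5 risen and 0 to 1 fallen at 8 h, 0 to 1 higher and 0 lower at 8 h than at 4 h, and 0 higher and 1 to 3 lower in Nrdp1-/- cells. The third lower one, without either untreated array, was Rpl39 (-1.61). The lone remaining array of a genotype and time is then assumed to vary like the others. The test of the difference in response could not be fitted without an array. The causes of these changes were not tested. The additive model compares genotypes within a time and times within a genotype. A further replicate block could not be fitted, since there was 1 array for each genotype and time. Probe sets near or below the array median and probe sets shared between genes limit what can be read for single members.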
